A study of Mus musculus with 3 samples.

Results

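The genes described here encode subunits of the vacuolar H+-ATPase (V-ATPase) and proteins of the lysosome, and they were followed by DNA methylation through 3 stages of mouse osteoclast differentiation. The 32 genes were taken by name: 8 encode subunits of the membrane sector V0, 8 encode subunits of the cytosolic sector V1, and the others encode 5 cathepsins, 2 glycosidases, 4 proteins of lysosomal membrane, lipid and ion transport, and 5 proteins of endosome and lysosome trafficking. They are 32 of 49943 genes in the annotation used. Their data are the CG regions in the authors' tables that overlap the annotated span of a gene by at least 1 bp, 331 distinct regions of the 432641 listed. At least 1 region lay in 30 of the 32 genes (93.8%), against 73.8% of 21887 protein-coding genes, whose median span was 17.2 kb against 25.3 kb here. Atp6v0c and Atp6v1f, with spans of 5.81 and 2.73 kb, held none, so their methylation is not analysed here.

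All cells came from the bone marrow of C57BL/6 mice at postnatal week 11. Cells left floating after 24 h of marrow culture received M-CSF (50 ng/mL), a macrophage growth factor, and 72 h of it gave bone marrow macrophages (BMM). BMM given RANKL (100 ng/mL), the cytokine that induces osteoclasts, beside M-CSF (30 ng/mL) became preosteoclasts (pOC) after 24 h and mature osteoclasts (mOC) after 72 h or more, so every stage had seen M-CSF. Each stage was measured in 1 library by whole-genome bisulfite sequencing, a method that reads methylated cytosines as C and unmethylated ones as T.

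Osteoclasts are multinucleated cells of the macrophage lineage that dissolve bone by pumping acid and releasing proteases into a sealed space against the bone surface. The V-ATPase is a rotary proton pump: its V1 sector hydrolyses ATP and its V0 sector carries protons across the membrane. In osteoclasts, lysosome-related vesicles fuse with the plasma membrane facing the bone and bring the pump and cathepsins there, which makes lysosomal trafficking part of resorption. DNA methylation at CG sites is commonly high within gene bodies and low at CG-rich promoters.

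A methylation level is given here as the percentage of methylated reads among all reads over a region, with an exact Clopper-Pearson 95% interval, and a difference is given in percentage points with a Newcombe 95% interval. The authors listed a region only where 2 libraries differed by at least 20 points, so a region missing from a table says nothing about its level. Without replicate libraries, differences between stages could not be set against the spread of replicates, and each Fisher's exact test compares the reads of 2 libraries, not 2 conditions. Intervals and tests cover counting error only. Reads per region of these genes, summed over 4 to 20 cytosines, ran from 16 to 185, with medians of 39 in BMM, 37 in pOC and 32 in mOC. Per cytosine, the median was 6.3 reads in BMM, 6.25 in pOC and 5.67 in mOC. An intermediate level can come from partial methylation in all cells or from a mix of cells, which cannot be told apart in such libraries. No RNA was measured, so the stages could not be checked by marker expression. Of the marker genes examined, listed regions in pOC against BMM lay in 4 of 5 macrophage genes (30 regions, all lower in pOC), 5 of 5 osteoclast genes (10, all lower), 2 of 4 T cell genes (8, all lower), 1 of 3 B cell genes (2 lower, 1 higher), 1 of 4 neutrophil genes (1, lower), 2 of 3 erythroid genes (2, both lower) and 2 of 3 stromal genes (9, all lower), where 92.9% of all listed regions were lower. The part of other cell types in the results was not tested.

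Gene starts were examined first, since promoter methylation is the feature most often read beside expression. RefSeq promoter sequences (250 bases before to 50 after the gene start) were at hand for 22 of the 32 genes, 27 promoters in all. No listed region of any of the 3 comparisons overlapped 1 of these windows, while 648 of 17492 protein-coding genes with a promoter sequence (3.70%) had such a region. The promoters were rich in CG, with a median of 20 CG sites in 300 bases (2 to 42) against 13 over all protein-coding genes. They were also searched for the E-box CACGTG and for its longer form TCACGTGA, which contains it; both read the same on the 2 strands. These letters form the core of the motif bound by TFEB and its relatives, regulators of lysosomal genes, and they hold a CG at their centre. CACGTG stood in 9 of the 22 genes (40.9%), against 8.91% of all protein-coding genes with a promoter sequence. TCACGTGA stood in 5 (22.7%), against 1.41%, and the 10-base CLEAR motif of lysosomal genes in none, against 0.469%. A match describes the letters in the window and says nothing about a factor's binding. The promoters shown are the 5 with TCACGTGA, and that of Lamp1, which held CACGTG 4 times. Each is printed 5′ to 3′ on the gene's strand, from RefSeq on GRCm38.p6, with CACGTG in capitals. They lie at chr8:105566015-105566314 (minus strand, Atp6v0d1), chr17:26676146-26676445 (plus, Atp6v0e), chr16:44139210-44139509 (minus, Atp6v1a), chr7:142387778-142388077 (minus, Ctsd), chr8:13158911-13159210 (plus, Lamp1) and chr8:3500269-3500568 (plus, Mcoln1).
Atp6v0d1: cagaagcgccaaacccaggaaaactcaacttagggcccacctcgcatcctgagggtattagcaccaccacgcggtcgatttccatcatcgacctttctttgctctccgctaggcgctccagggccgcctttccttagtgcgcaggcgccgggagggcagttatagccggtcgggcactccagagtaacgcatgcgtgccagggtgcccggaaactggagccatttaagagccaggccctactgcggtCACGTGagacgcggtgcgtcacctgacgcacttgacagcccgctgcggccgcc
Atp6v0e: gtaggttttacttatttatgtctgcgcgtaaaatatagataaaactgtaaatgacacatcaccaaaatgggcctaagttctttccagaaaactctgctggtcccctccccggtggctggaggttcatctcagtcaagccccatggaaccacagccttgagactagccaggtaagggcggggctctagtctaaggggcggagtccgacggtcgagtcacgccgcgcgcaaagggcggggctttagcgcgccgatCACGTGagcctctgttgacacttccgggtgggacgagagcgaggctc
Atp6v1a: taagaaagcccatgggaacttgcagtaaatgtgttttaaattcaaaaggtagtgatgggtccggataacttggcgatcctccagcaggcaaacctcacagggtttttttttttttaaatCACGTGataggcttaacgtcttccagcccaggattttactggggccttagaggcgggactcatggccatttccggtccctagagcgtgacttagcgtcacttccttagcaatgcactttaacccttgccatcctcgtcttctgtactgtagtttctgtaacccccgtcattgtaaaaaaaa
Ctsd: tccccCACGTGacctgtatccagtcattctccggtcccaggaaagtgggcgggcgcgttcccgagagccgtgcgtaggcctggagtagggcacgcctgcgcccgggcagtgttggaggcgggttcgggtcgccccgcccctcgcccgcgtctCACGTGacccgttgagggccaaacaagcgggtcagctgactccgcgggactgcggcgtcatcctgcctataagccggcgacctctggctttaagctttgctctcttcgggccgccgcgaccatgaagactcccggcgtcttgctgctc
Lamp1: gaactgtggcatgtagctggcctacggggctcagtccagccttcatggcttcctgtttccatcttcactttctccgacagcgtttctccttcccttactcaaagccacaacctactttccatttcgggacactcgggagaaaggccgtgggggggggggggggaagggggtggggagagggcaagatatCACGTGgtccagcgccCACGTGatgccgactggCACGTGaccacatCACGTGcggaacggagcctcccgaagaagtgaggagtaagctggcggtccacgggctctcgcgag
Mcoln1: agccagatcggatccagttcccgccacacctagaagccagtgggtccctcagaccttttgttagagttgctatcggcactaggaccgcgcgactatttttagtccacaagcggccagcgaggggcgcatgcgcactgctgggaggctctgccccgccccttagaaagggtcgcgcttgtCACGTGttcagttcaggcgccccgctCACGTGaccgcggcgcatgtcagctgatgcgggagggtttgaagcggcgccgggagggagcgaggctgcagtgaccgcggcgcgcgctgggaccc

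Widening the window to 1000 bp on both sides of the start brought in regions of 4 of the 22 genes (18.2%), against 4621 of 17492 protein-coding genes (26.4%). Their centres lay from -896 to 1082 bp from the start, and those upstream lie outside the gene span and outside the 331 regions. The nearest belonged to Vps41, a subunit of the HOPS complex that tethers late endosomes to lysosomes: chr13:18716804-18717003, centred at -388 bp, was methylated in none of 29 reads in BMM (0%, interval 0 to 11.9) and at 20% in mOC (6.83 to 40.7, 25 reads). Inside the same gene, at 1412 bp, chr13:18718604-18718803 was at 48.8% in pOC (33.3 to 64.5) and 26.8% in mOC (14.2 to 42.9). The adjusted Fisher's exact p of that second difference was 0.062. Upstream of Atp6v0e, which encodes the small e subunit of V0, chr17:26675401-26675600 was at 52% in BMM (37.4 to 66.3) and 30.2% in pOC (19.2 to 43.0), and the adjoining chr17:26675601-26675800 was at 81.0% in BMM and 60.9% in mOC. Mcoln1 encodes the lysosomal calcium channel TRPML1. Its region chr8:3501401-3501800, 1082 bp past the start, was at 64.8% in BMM (50.6 to 77.3) and 38.8% in pOC (28.1 to 50.3), and a region at -818 bp was at 33.8% in pOC and 56.9% in mOC. Gaa, the gene of acid alpha-glucosidase, which breaks down glycogen in lysosomes, had chr11:119267202-119267401 at 47.4% in pOC (24.4 to 71.1) and 76.5% in mOC (50.1 to 93.2), at -662 bp.

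**Figure D1:**
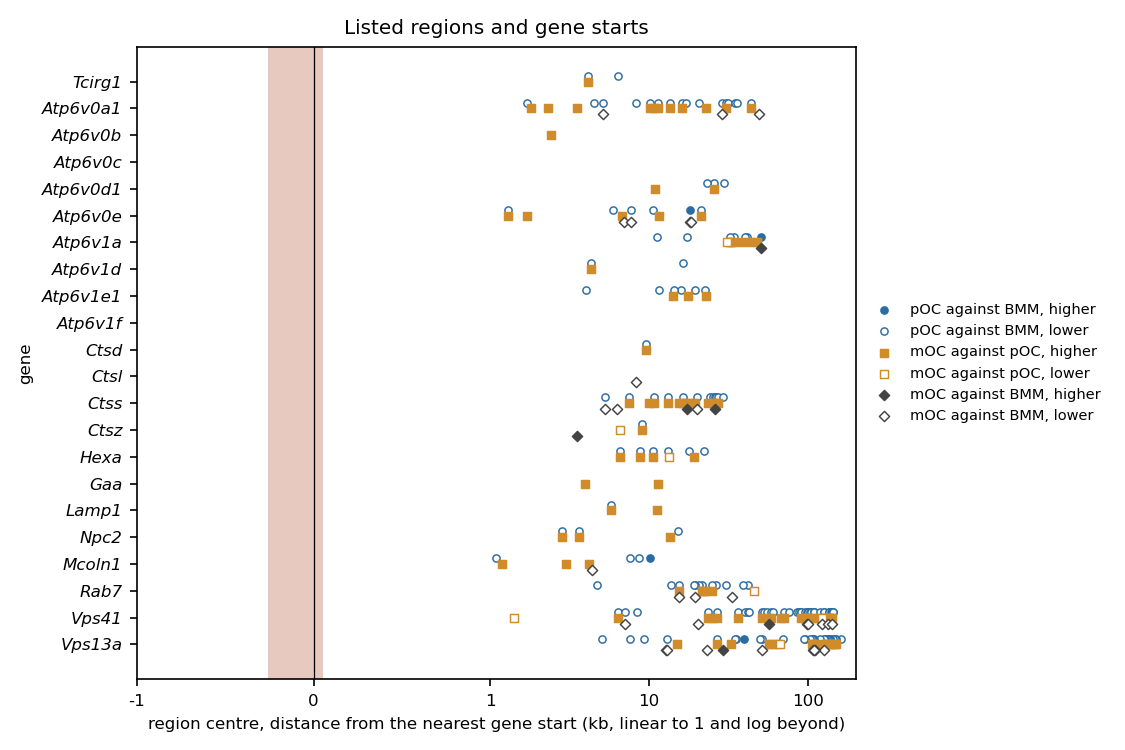
Each row is a gene with a known start and each point a listed region inside its span, placed by the distance of its centre from the nearest gene start (kb, linear to 1 and log beyond). Filled points are higher and open points lower in the later stage of each comparison, and the shaded band is the promoter window from 250 bp before to 50 bp after the start, in which there is no point; the nearest lies 1082 bp away, in Mcoln1.

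The first comparison asked how these genes differed after 24 h of RANKL. Nearly all of their listed regions were less methylated in pOC than in BMM. The 3 V0 genes Tcirg1, Atp6v0a1 and Atp6v0a2 had 2, 16 and 11 regions lower and none higher, the cathepsin gene Ctss had 12 and none, and the trafficking genes Vps41 and Vps13a had 39 and none, and 29 and 1. A region was listed in 27 of the 32 genes, where 67.2% of all protein-coding genes held one. Regions were lower in pOC in 23 genes, in both directions in 4, and in none higher alone. Of 218 regions, 214 were lower in pOC (98.2%) and 4 higher. Of all listed regions 92.9% were lower and 7.06% higher, and of those in protein-coding genes 95.3% and 4.71%. The median difference was -28.3 points, against -28.7 over all listed regions. Summed over its reads, the level was 87.6% in BMM and 58.9% in pOC. Fisher's exact test, adjusted over the whole table, passed 0.05 for 205 of the 218 regions (94.0%), where 91.3% of all listed regions passed. The table was itself chosen by a difference of at least 20 points and a deposited p-value of at most 0.05 in the same libraries, so the adjustment ran over selected regions, most of which had to pass, and the count is a description. Reads that span several cytosines enter a region several times. To approximate counting them once per strand and region, both counts of a region were divided by its number of CG sites. This takes every read to cover every site. On the divided counts, called reads counted once below, 79 regions (78 lower, 1 higher) had a score test p-value of at most 0.05. The share of all listed regions with such a p-value is not given here for any comparison. These counts therefore describe the regions of these genes and cannot be called particular to them.

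The comparison of mOC with BMM asked what differed after 72 h or more. It gave fewer regions and less uniform directions. A region was listed in 17 of the 32 genes, where 44.7% of all protein-coding genes held one. Regions were lower in mOC in 9 genes, higher in 3 (Atp6v1a, Ctsb and Ctsz, 1 region each) and in both directions in 5 (Atp6v0e, Atp6v1h, Ctss, Vps41 and Vps13a). Of 47 regions, 35 were lower in mOC (74.5%) and 12 higher. Of all listed regions 58.9% were lower and 41.1% higher, and of those in protein-coding genes 63.3% and 36.7%. The median difference was -25 points, against -22.3 over all listed regions, and the summed level was 79.2% in BMM and 66.1% in mOC. The adjusted Fisher's exact test passed 0.05 for 46 of the 47 (97.9%), where 93.8% of all listed regions passed, a count that the same selection fixes for the most part. With reads counted once, 10 regions (8 lower, 2 higher) had a score test p-value of at most 0.05. Vps41 and Vps13a held 17 of the 47, and 30 remained without them.

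The comparison of mOC with pOC asked what differed between 24 h and 72 h or more of RANKL. Here regions were mostly more methylated in the later library, among them 11 in Atp6v0a1, 13 in Ctss, 7 in Vps35, 23 in Vps41 and 16 in Vps13a. A region was listed in 28 of the 32 genes, where 67.0% of all protein-coding genes held one. Regions were higher in mOC in 18 genes, in both directions in 10, and in none lower alone. Of 161 regions, 149 were higher in mOC (92.5%) and 12 lower. Of all listed regions 89.1% were higher and 10.9% lower, and of those in protein-coding genes 91.6% and 8.42%. The median difference was 26.4 points, against 26.8 over all listed regions, and the summed level was 57.1% in pOC and 82.2% in mOC. The adjusted Fisher's exact test passed 0.05 for 114 of the 161 (70.8%), where 64.8% of all listed regions passed. With reads counted once, 38 regions (37 higher, 1 lower) had a score test p-value of at most 0.05. The pOC library is in this comparison and in that of pOC with BMM, so their opposite directions are not independent.

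**Figure D2:**
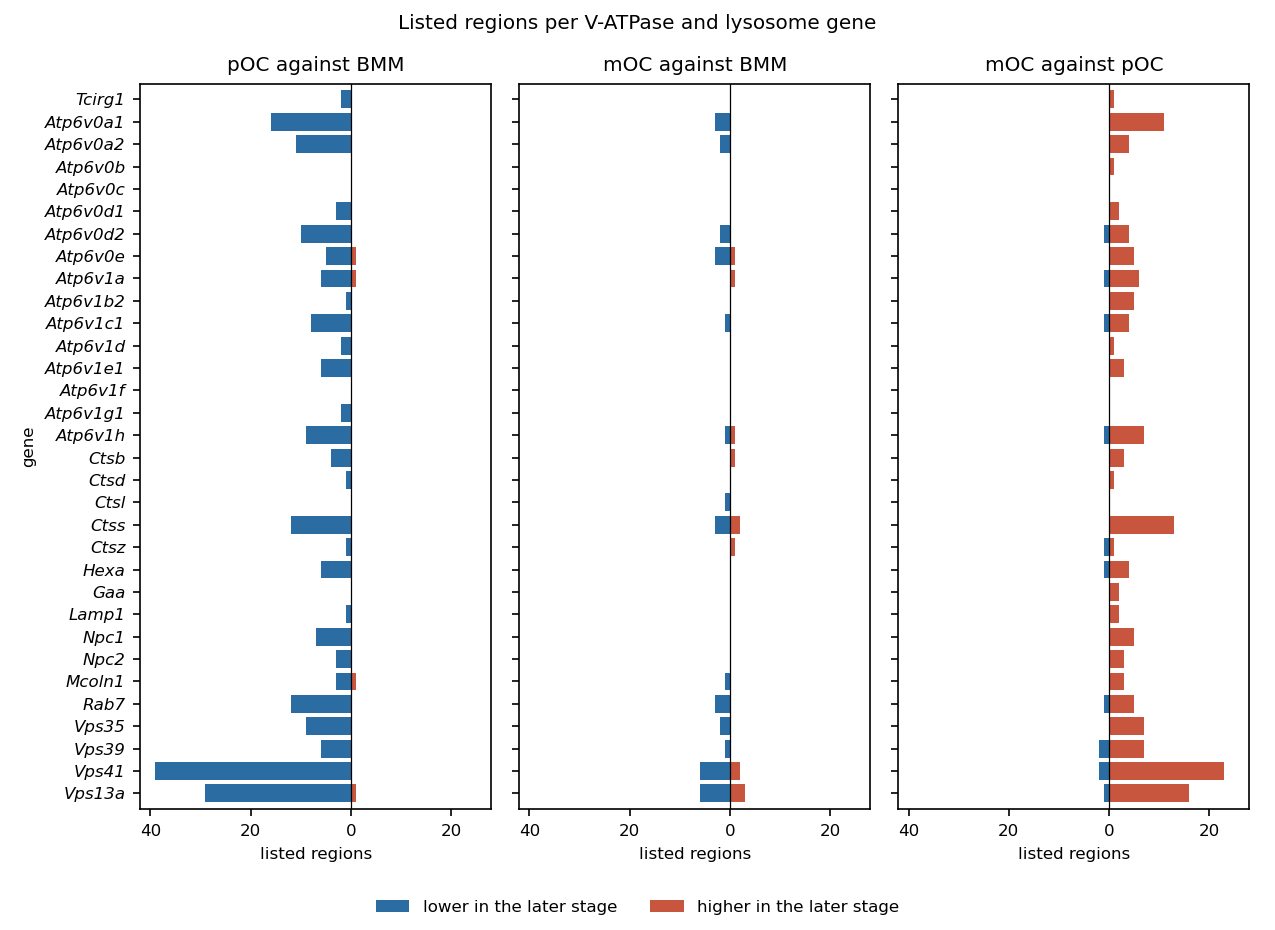
Bars to the left count regions lower, and bars to the right regions higher, in the later stage of each comparison (1 library a stage), by gene. In pOC against BMM 214 of 218 regions lie to the left, in mOC against pOC 149 of 161 lie to the right, and in mOC against BMM 35 lie to the left and 12 to the right.

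The V0 sector holds the proton path. Tcirg1 encodes a3, the isoform of the large a subunit that osteoclasts place at the resorbing membrane, and its loss causes osteopetrosis. Of its 2 regions, chr19:3901001-3901200 had levels in all 3 libraries: 73.9% in BMM (58.9 to 85.7, 46 reads), 43.4% in pOC (29.8 to 57.7, 53 reads) and 65.5% in mOC (51.9 to 77.5, 58 reads). The difference of pOC from BMM was -30.5 points (-46.8 to -11.1), and that of mOC from BMM was -8.40 points (-25.0 to 9.50), an interval that includes 0. Its score test p-value with reads counted once was 0.171 for pOC against BMM and 0.295 for mOC against pOC. The genes of the isoforms a1 and a2 also had pOC lowest. In Atp6v0a1, chr11:101020402-101020601 was at 87.5% in BMM, 67.2% in pOC and 92.7% in mOC. In Atp6v0a2, chr5:124640401-124640600 was at 80.8%, 52.5% and 78.2%. The score test p-value for pOC against BMM, with reads counted once, was 0.298 at this Atp6v0a1 region and 0.109 at that of Atp6v0a2. Atp6v0a1 also held chr11:101015402-101015601, at 95% in BMM, 66.7% in pOC and 55.6% in mOC, a difference of mOC from BMM of -39.4 points (adjusted Fisher's exact p = 0.0013); there mOC was the lowest library.

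The d subunit couples V0 to the rotating shaft, and mice use d1 widely and d2 in osteoclasts, where d2 also takes part in cell fusion. The d1 gene Atp6v0d1 was at 80.3% in BMM, 50% in pOC and 73.8% in mOC at chr8:105540401-105540600. It also had one of the greatest differences of these genes in pOC against BMM, at chr8:105536601-105536800, 85.7% in BMM (63.7 to 97.0, 21 reads) and 20% in pOC (5.73 to 43.7, 20 reads). Atp6v0d2 did not have pOC lowest at its deepest region, chr4:19921403-19921602, with 56.6% in BMM (42.3 to 70.2, 53 reads), 35.4% in pOC (22.2 to 50.5, 48 reads) and 27.8% in mOC (16.5 to 41.6, 54 reads). The level in mOC was -28.8 points from BMM (-44.9 to -10.1, adjusted Fisher's exact p = 0.015) and -7.64 points from pOC (-25.1 to 10.1). With reads counted once, the score test p-value was 0.0812 for mOC against BMM and 0.218 for pOC against BMM. Its other 3 regions with 3 levels had pOC lowest. Atp6v0e had 1 region of the opposite course, chr17:26694401-26694600, at 53.1% in BMM (38.3 to 67.5), 73.3% in pOC (63.0 to 82.1) and 84.8% in mOC (68.1 to 94.9), with score test p-values of 0.227 for pOC and 0.137 for mOC against BMM when reads were counted once. The other 3 of its regions with 3 levels had pOC lowest. Atp6v0b encodes the c'' subunit of the proton-carrying ring. Its single region, chr4:117884803-117885002, was at 66.7% in pOC (18 reads) and 88.2% in mOC (34 reads). The interval of that difference, -1.05 to 45.6 points, included 0, and the adjusted Fisher's exact p was 0.0885. Over the 23 V0 regions with 3 levels, pOC was lowest in 19 (82.6%), against 81.7% of all regions with 3 levels. The level in mOC was below BMM in 18, against 63341 of all 113818, and the median difference was -6.48 points, against -1.52. Of the 23, 8 lay in Atp6v0a1, where the median difference was -11.8 points.

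The V1 sector holds the catalytic head and the stalks. Its A and B subunits form the ATP-hydrolysing ring. The A subunit gene Atp6v1a was at 88.9% in BMM, 67.8% in pOC and 89.6% in mOC at chr16:44107001-44107200. It also held the only region of the 32 genes with pOC above both other libraries, chr16:44088601-44088800, at 60.9% in BMM (45.4 to 74.9), 96.3% in pOC (81.0 to 99.9) and 83.0% in mOC (69.2 to 92.4). With reads counted once, the score test p-values were 0.0545 for pOC and 0.170 for mOC against BMM. The B2 gene Atp6v1b2 was at 94.3% in BMM, 51.9% in pOC and 77.8% in mOC at chr8:69093601-69093800. Atp6v1d encodes the D subunit of the central shaft: chr12:78857201-78857400 was at 87.8% in BMM (75.2 to 95.4, 49 reads), 42.9% in pOC (27.7 to 59.0, 42 reads) and 90.6% in mOC (75.0 to 98.0, 32 reads), with pOC far below the others and mOC -13.3 to 16.3 points from BMM.

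Subunits C and H sit where V1 meets V0 and take part in its reversible assembly. Atp6v1c1 had chr15:38691001-38691200 at 79.4% in BMM, 50% in pOC and 56.3% in mOC, which was -23.0 points from BMM (-37.2 to -7.15, score test p-value 0.102 with reads counted once). Another of its regions, chr15:38678401-38678600, was at 82.8%, 53.6% and 100%, all 30 reads of the last being methylated. Atp6v1h was at 65.3% in BMM, 40% in pOC and 73.6% in mOC at chr1:5130603-5130802. The stalk subunit genes Atp6v1e1 and Atp6v1g1 had no region with 3 levels. Atp6v1e1 was at 56.8% in pOC (45.8 to 67.3, 88 reads) and 82.2% in mOC (72.7 to 89.5, 90 reads) at chr6:120805001-120805200, and had 6 regions lower in pOC than in BMM. Atp6v1g1 was at 89.8% in BMM and 69.0% in pOC at chr4:63548203-63548402. Over the 12 V1 regions with 3 levels, pOC was lowest in 11 (91.7%), against 81.7% of all regions with 3 levels. The median difference of mOC from BMM was -2.03 points, against -1.52 over all of them.

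Cathepsins are the lysosomal proteases, cysteine proteases except for the aspartic cathepsin D. Ctsd had 1 region, chr7:142378201-142378400, at 85.7% in BMM (67.3 to 96.0, 28 reads), 44.7% in pOC (28.6 to 61.7, 38 reads) and 89.5% in mOC (78.5 to 96.0, 57 reads). The deepest of 3 regions in Ctsz was at 72.5%, 49.1% and 84.3% at chr2:174429802-174430201. Ctsb had 1 region listed in mOC against BMM, and it stood higher in mOC. This region, chr14:63135201-63135400, was at 52.4% in BMM (41.1 to 63.6, 82 reads), 32.7% in pOC (20.3 to 47.1, 52 reads) and 78.6% in mOC (63.2 to 89.7, 42 reads). Its difference of mOC from BMM was 26.1 points (8.25 to 40.6, adjusted Fisher's exact p = 0.020). With reads counted once, the score test p-value of that difference was 0.206. Ctsl had a single region, chr13:64362204-64362403, at 100% in BMM (22 reads) and 75% in mOC (16 reads). Ctss, whose product cathepsin S is strong in antigen-presenting cells, had the most regions for its length of all 32 genes, 20 in 29.6 kb. Its deepest, chr3:95532001-95532200, was at 92% in BMM (83.4 to 97.0, 75 reads), 65% in pOC (53.5 to 75.3, 80 reads) and 71.2% in mOC (59.4 to 81.2, 73 reads), so mOC was -20.8 points from BMM (-32.8 to -8.39, score test p-value 0.102 with reads counted once). A second Ctss region, chr3:95546601-95546800, was at 91.1%, 59.4% and 51.9%. Of the 10 Ctss regions with 3 levels, 8 had pOC lowest, where 81.7% of all regions with 3 levels did. Over the 15 cathepsin regions with 3 levels the median difference of mOC from BMM was 0.56 points, against -1.52 over all such regions.

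The glycosidase gene Hexa encodes the alpha subunit of beta-hexosaminidase, which degrades gangliosides. Its region chr9:59550001-59550200 was at 90.6% in BMM (80.7 to 96.5), 50% in pOC (34.9 to 65.1) and 82.1% in mOC (66.5 to 92.5). Gaa had no region with 3 levels, and inside its span chr11:119271802-119272001 was at 57.6% in pOC and 90.3% in mOC. Npc1 and Npc2 encode the pair of proteins that export cholesterol from lysosomes. Npc1 was at 76.7% in BMM, 38.5% in pOC and 79.2% in mOC at its deepest region, and Npc2 at 75.6%, 47.8% and 71.7% at chr12:84770201-84770400. Lamp1, a heavily glycosylated protein of the lysosomal membrane, was at 94.4% in BMM (72.7 to 99.9), 53.3% in pOC (34.3 to 71.7) and 85.7% in mOC (63.7 to 97.0) at chr8:13164801-13165000. Mcoln1 had 8 regions, none with 3 levels, the deepest at 92.8% in BMM and 64.2% in pOC. The 9 regions with 3 levels in these glycosidase, membrane and transport genes were all listed in pOC against BMM and mOC against pOC and not in mOC against BMM. Such a listing leaves pOC as the lowest or the highest library in nearly all cases, and it was the lowest in all 9.

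Among the trafficking genes, Rab7 encodes the GTPase that marks late endosomes and is needed for the ruffled border. Its region chr6:88025401-88025600 was at 97.9% in BMM (92.7 to 99.7, 97 reads), 64.6% in pOC (53.3 to 74.9, 82 reads) and 72.2% in mOC (60.9 to 81.7, 79 reads). It was lower than BMM in both later libraries, with differences of -33.3 points in pOC (-44.2 to -22.5, adjusted Fisher's exact p = 1.5e-07) and -25.8 points in mOC (-36.6 to -15.7, adjusted p = 9.0e-05). In Vps35, which encodes the cargo-binding subunit of retromer, chr8:85284001-85284200 was at 95.5% in BMM (89.8 to 98.5, 111 reads), 66.7% in pOC (55.7 to 76.4, 87 reads) and 90.8% in mOC (82.7 to 95.9, 87 reads), where mOC was -4.69 points from BMM (-13.0 to 2.48). The HOPS gene Vps39 was at 92.3%, 48.7% and 88.9% at chr2:120350002-120350201. Vps41 had its deepest region, chr13:18807404-18807603, at 86.3% in BMM, 65.0% in pOC and 95.7% in mOC.

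Vps13a encodes a lipid transfer protein at membrane contacts, and has the longest span, 166 kb. Its deepest region, chr19:16672801-16673000, has the most cytosines of the 331 regions, 20. It was at 56.8% in BMM (46.3 to 67.0, 95 reads), 52% in pOC (42.9 to 61.0, 125 reads) and 84.5% in mOC (76.0 to 90.9, 103 reads). BMM and pOC overlapped there and mOC stood above both, 27.6 points over BMM (15.1 to 39.2) and 32.5 over pOC (20.6 to 42.9). With reads counted once over its many cytosines, the score test p-values of these differences were 0.175 and 0.102. Vps13a also held the greatest differences of pOC from BMM in both directions. At chr19:16644201-16644400 the level was 92.1% in BMM (78.6 to 98.3) and 25% in pOC (7.27 to 52.4), and at chr19:16741401-16741600 it was 14.3% in BMM (3.05 to 36.3) and 80% in pOC (56.3 to 94.3). Both rest on 16 to 38 reads a library and 4 cytosines. Over the 36 trafficking regions with 3 levels, pOC was lowest in 29 (80.6%), against 81.7% of all regions with 3 levels. The median difference of mOC from BMM was -0.63 points with quartiles of -21.1 and 4.07. Over all such regions it was -1.52 with quartiles of -10.4 and 5.64.

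**Figure D3:**
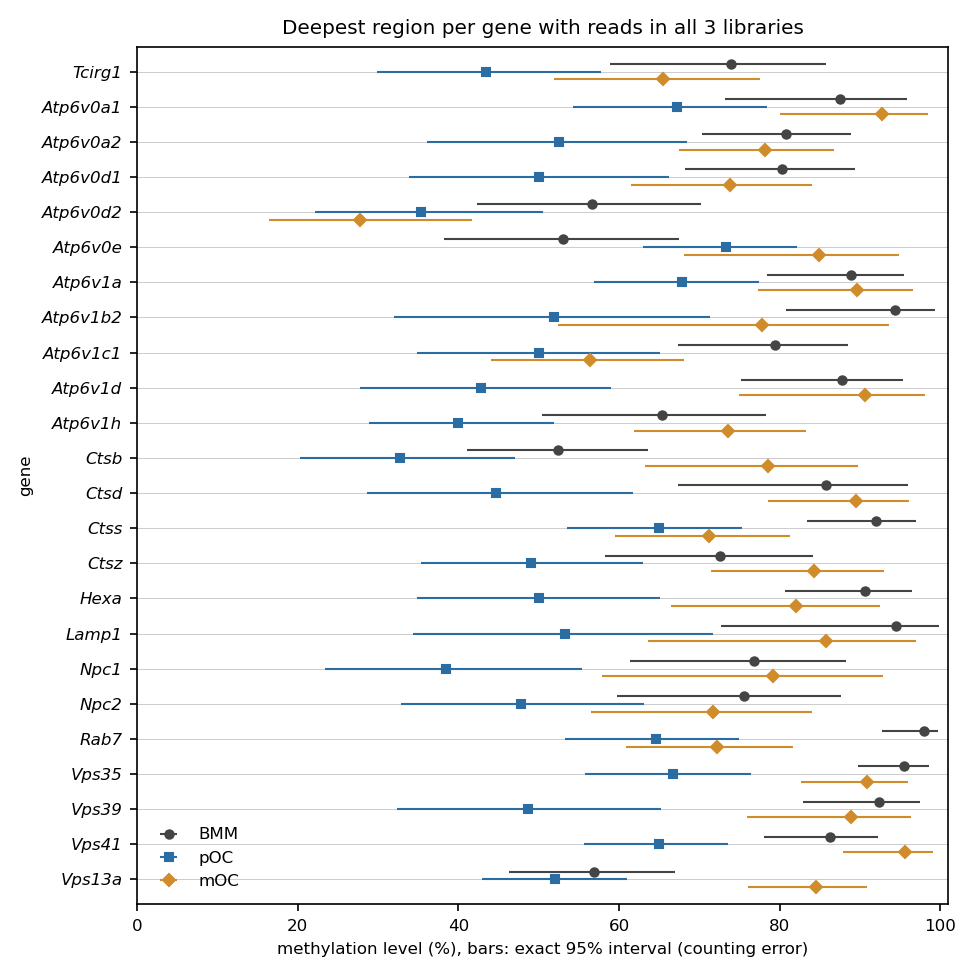
Points are methylation levels (%) in BMM, pOC and mOC at the region with most reads in each of the 24 genes with 3 levels, and bars are exact 95% intervals for counting error. The level in pOC is the lowest in 22 genes, and Atp6v0d2 and Atp6v0e run downward and upward through the 3 stages.

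Levels in all 3 libraries could be read only in regions listed in at least 2 comparisons, 95 of the 331, in 24 genes. The median was 88.5% in BMM, 56.6% in pOC and 84.4% in mOC, against 77.3%, 47.1% and 73.4% over the 113818 such regions of the whole series, in genes and outside them. The regions of these genes stood higher in each library, with no test of that difference. In 81 regions (85.3%) pOC was lowest, in 1 highest, and in 13 between the others, where 81.7% of all such regions had pOC lowest. The way regions were listed fixes much of this shape, since 72 of the 95 were listed both in pOC against BMM and in mOC against pOC. Such a listing leaves pOC lowest or highest in nearly all cases. All 72 had pOC lowest, as did 77372 of the 80936 regions of the whole series listed in these 2 comparisons alone, where 3559 had pOC highest. The same 72 were not listed in mOC against BMM, where listing took at least 20 points and a deposited p-value of at most 0.05. The listing therefore also narrows, without strictly bounding, the difference of mOC from BMM. Its median was -1.58 points with quartiles of -14.6 and 3.91, against -1.52 with quartiles of -10.4 and 5.64 over all such regions. The level in mOC was above that in BMM in 39 regions and below in 56. A median near 0 therefore largely restates the listing and does not show that mOC and BMM were alike. The 18 regions listed in both comparisons with BMM had a median of 92.5% in BMM, 64.8% in pOC and 65.8% in mOC, and 16 of them were below BMM in mOC. The 5 listed in both comparisons with mOC had a median difference of mOC from BMM of 26.1 points. None was listed in all 3 comparisons, against 1.28% of all regions with 3 levels.

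**Figure D4:**
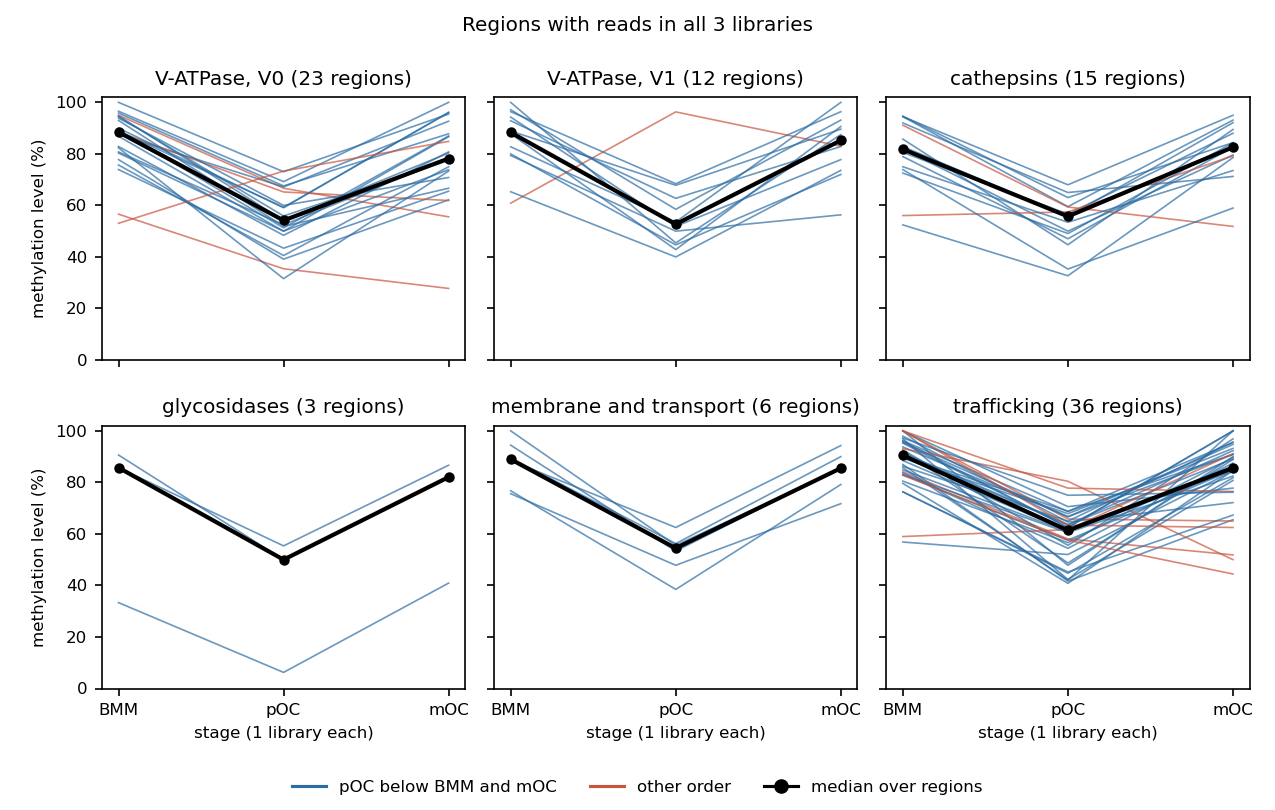
Each thin line is a region with reads in all 3 libraries, grouped by the role of its gene, with methylation level (%) against stage (1 library each), and black points are medians over regions. The 81 regions with pOC lowest are drawn in 1 colour and the other 14 in another, most of them in V0 and trafficking genes.

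At the deepest region of each of the 24 genes, pOC was lowest in 22, the exceptions being Atp6v0d2 and Atp6v0e. The interval of pOC minus BMM lay below 0 in 22 genes, that of mOC minus pOC above 0 in 18, and both in 17. Of these deepest regions, 22 were listed in pOC against BMM and 19 in mOC against pOC. Listing took a difference of at least 20 points, so most of these intervals had to exclude 0, and the counts are a description. Reads that span several cytosines narrow these intervals. With counts divided by the number of CG sites, as above, the score test p-value was at most 0.05 at 9 of the 22 deepest regions listed in pOC against BMM. It was so at 7 of the 19 listed in mOC against pOC and 1 of the 7 listed in mOC against BMM. For mOC minus BMM the interval included 0 in 16 genes, with 11 genes above BMM and 13 below. An interval that includes 0 does not show that the levels were equal.

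Few regions ran against the direction of their comparison. The 4 regions higher in pOC than in BMM lay in Atp6v0e, Atp6v1a and Vps13a, given above, and in Mcoln1, where chr8:3510601-3510800 was at 64.7% in BMM and 93.8% in pOC on 17 and 16 reads. Of these, the Mcoln1 region did not pass the adjusted Fisher's exact test (p = 0.086). The 12 regions lower in mOC than in pOC were spread over 10 genes. The greatest was in Vps39, where chr2:120348002-120348201 was at 56.7% in pOC (37.4 to 74.5, 30 reads) and 12.5% in mOC (1.55 to 38.3, 16 reads, adjusted Fisher's exact p = 0.015), in the same gene as the region whose level was 40.2 points higher in mOC. In Ctsz, chr2:174432402-174432601 was at 70.4% in pOC and 36.8% in mOC (adjusted Fisher's exact p = 0.053). Vps41 had chr13:18839404-18839603 at 93.1% in BMM (77.2 to 99.2), 80.4% in pOC (66.1 to 90.6) and 50% in mOC (29.1 to 70.9), the greatest difference of mOC from BMM among these genes, -43.1 points (-62.3 to -19.2, adjusted Fisher's exact p = 0.0062). The remaining ones lay in Atp6v0d2, Atp6v1a, Atp6v1c1, Atp6v1h, Hexa, Rab7 and Vps13a and once more in Vps39 and Vps41, with differences from -21.3 to -29.7 points. Counted by the adjusted Fisher's exact test at 0.05, 4 of the 12 passed, where 64.8% of all regions listed in mOC against pOC, of both directions, did. The share among all regions lower in mOC is not given here, so 4 of 12 is a description. With reads counted once, 1 of the 12 had a score test p-value of at most 0.05.

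Neighbouring regions mostly shared their direction in pOC against BMM, where 98.2% of regions were lower, and in mOC against pOC, where 92.5% were higher. Lists so one-sided make most pairs agree by themselves. Within 1000 bp of each other lay 43 pairs of neighbouring regions of these genes in pOC against BMM, none of them opposite in direction, and 31 pairs in mOC against pOC, 1 of them opposite. Over all listed regions, in genes and outside them, the opposite share was 9.45% and 17.4%. In mOC against BMM there were 5 pairs and 3 were opposite, where 49.4% of all such pairs were. In Atp6v0e, chr17:26694401-26694600 differed by 31.8 points between mOC and BMM and the adjoining chr17:26694601-26694800 differed by -36.4 points. In Vps13a, the adjoining chr19:16767801-16768000 and chr19:16768001-16768200 differed by -38.3 and 23.1 points. A further Vps13a pair, separated by 600 bp, comprised chr19:16672001-16672200 at -33.2 points and the deepest region chr19:16672801-16673000 at 27.6 points.

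Regions were spread through the gene bodies. For 234 regions in genes with a known start, the median distance from it was 26416 bp, and 7 (2.99%) lay within 2000 bp, against 4.36% of regions over all protein-coding genes. Vps41 held 55 regions and Vps13a 50, the most of these genes. Per length of span, Ctss was first with 67.5 regions per 100 kb, followed by Mcoln1 (54.4), Atp6v0e (47.3) and Atp6v0a1 (40.5), and Ctsd was lowest of those with a region (8.39). The median over the 32 genes was 24.0 regions per 100 kb, against 18.5 over all protein-coding genes. The median number of cytosines was 6 per region both here and over all listed regions, and median reads over all listed regions were 36 in BMM, 36 in pOC and 31 in mOC. The part of depth and CG content in these counts was not tested. In addition, 6 regions overlapped another annotated gene.

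**Figure D5:**
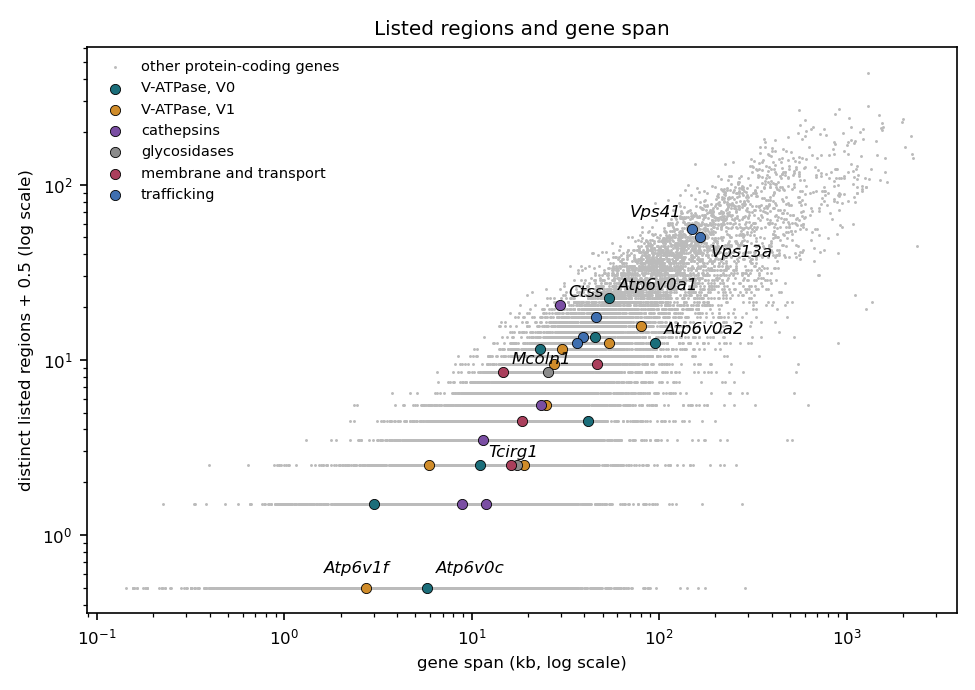
Each coloured point is 1 of the 32 genes and each grey point another protein-coding gene, with the gene span (kb, log scale) against the number of distinct listed regions plus 0.5 (log scale). Vps41 and Vps13a hold 55 and 50 regions in the longest spans, and Ctss holds 20 in 29.6 kb.

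The same comparisons were made for 103 other genes of the V-ATPase and the lysosome in 6 lists. In pOC against BMM, 86 of them held a region, with 980 regions lower in pOC (97.4%) and 26 higher. Of all protein-coding genes 67.2% held one, and 95.3% of the regions in them were lower. In mOC against BMM, 53 held a region, with 142 lower (68.9%) and 64 higher, against 44.7% of protein-coding genes and 63.3% lower in them. In mOC against pOC, 82 held a region, with 41 lower and 698 higher (94.5%), against 67.0% of protein-coding genes and 91.6% higher in them. Among the other V-ATPase subunits, Atp6v0a4, the a4 isoform of kidney intercalated cells, had most, 10 regions lower in pOC than in BMM, followed by Atp6v1c2 with 3 and Atp6v1g3 with 4, and none higher in these 3 genes. Wdr7 and Dmxl2, which form the complex that assembles the pump, had 67 lower and none higher, and 38 lower and 1 higher. Oxr1, in the list of V-ATPase assembly and regulation, had 79 lower and 2 higher. Ctsc, Ctso and Lgmn led the other proteases with 6, 9 and 7 regions lower and 1, none and none higher. Of the hydrolases, Arsb had 36 lower, Manba 29 and Glb1 20, with none higher in these 3 genes. Sort1, Gnptab and Slc17a5, which serve enzyme sorting and sialic acid export, had 27, 19 and 17 lower and 1, 1 and 2 higher. Vps13b, Vps8 and Vps13c led the trafficking list with 94, 57 and 48 lower and 7, none and none higher. No region in any comparison overlapped a promoter window of these 103 genes for which RefSeq promoters were at hand. Of all protein-coding genes with a promoter sequence, 3.70% had such a region.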

How the data were processed

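Whole-genome bisulfite sequencing of 3 libraries (BMM, pOC and mOC, 1 each) was analysed from 3 region tables that the authors deposited, 1 for each pair of libraries. Per the file headers, a region's row gives, for either library, the deposited count of methylated reads, the count of reads in all and the level as a fraction, with a p-value from the authors. The table headings name hours (0, 24 and 72), which were matched to the stages. The submitters' processing notes name GRCm38 as the build, and the tools FastQC, HISAT2 and StringTie without a role. How reads were aligned and regions called is not given in the sources used here. In the files, differences of listed regions began at 20 points, cytosines at 4 and reads at 16, in bins of 200 bp. In mOC against pOC the deposited p-value went up to 0.0917. Listing by size of difference raises the differences seen among listed regions. Depth was 16 to 185 reads per region of these genes, summed over the cytosines of the region. Library totals are not analysed here.

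Regions were joined to spans of a RefSeq gene table (GRCm38.p6) without exons, so exons and introns were not assigned. Levels were recomputed from the counts and equalled the deposited fraction within 1e-06. Fisher's exact test (two-sided) was run on the counts of every listed region and adjusted by Benjamini-Hochberg over each table, at a threshold of 0.05. A minimum of 10 reads removed no region. For reads counted once, methylated and total counts were divided by the number of CG sites in the region. A score test (normal approximation) was run on the quotients without adjustment. The script was tested on simulated data. Tools were Python 3.11.15, pandas 2.3.3, scipy 1.17.1 and numba 0.67.0. No set test was run.

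The genes and gene lists were chosen with earlier results of these data known. Named regions are the deepest region of each gene, the greatest differences in each comparison, those near a start and those against the direction of their comparison. Of other lists, the 3 genes with most regions are named. Alternatives changed the overlap, the span, the read minimum, the difference, the p-value and the counting of reads. Leaving out Vps41 and Vps13a was an alternative chosen after seeing the data.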

Additional observations from a re-analysis of the deposited data

How the results depend on the processing

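Directions held under every alternative run, and 110 of 166 values were called unchanged. Some of the 110 could not change. In both comparisons with BMM every listed region already had a deposited p-value of at most 0.05. The deposited levels, 1 of the alternatives, equalled the recomputed ones. A count was so called within 1.5 times its main value, and a share inside the Clopper-Pearson interval of its main value. A median was so called within the margin of a Newcombe interval on summed reads, which covers counting error and not the spread between regions. At least 30 reads left 127 regions in pOC against BMM (126 lower, 1 higher), 32 in mOC against BMM (20 lower, 12 higher, median -21.0 points), where the share lower was 62.5% in place of 74.5%, 77 in mOC against pOC (3 lower, 3.90%, and 74 higher), and 47 regions with 3 levels (41 with pOC lowest). A deposited p-value of at most 0.001 left 41 regions (40 lower, 1 higher, median -38.1), 1 lower and 0 higher in 1 gene (100% lower), and 15 higher and 0 lower (0% lower) in 10 genes (median 40.2), in the same order. At most 0.05 gave a median of 28.9 points in mOC against pOC. A difference of at least 30 points left 94 (92 lower, 2 higher, median -36.8), 14 (12 and 2, in 9 genes, median -34.4) and 65 (3 and 62, median 34.6). Reads counted once left 79 (78 and 1, median -37.9), 10 (8 and 2, in 8 genes, median -35.7) and 38 (1 lower, 2.63%, and 37 higher, median 37.1). Without Vps41 and Vps13a, 30 regions remained in mOC against BMM. Within 1000 bp of a start, 4 genes held a region. Stricter rules leave fewer and larger differences by construction. No paired analysis was possible because each stage has 1 library. Depth limits a single region, since its level rests on 16 to 185 reads summed over its cytosines.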
